A study of Mus musculus with 6 samples.

Results

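The Myc, Max and Mxd network was followed here in mouse CD4 T cells carrying an E47 or a control retrovirus, through the 9 genes Myc, Mycn, Max, Mxd1, Mxd3, Mxd4, Mxi1, Mnt and Mlx. Members were all probe sets whose symbol in the platform annotation is exactly one of these names, which gave 21 of the 45101 probe sets on the array, with 7 of the 9 genes covered by more than 1. The family was selected on the measured log2 difference between E47 and control in these samples, which was known when its genes were listed, so values of that difference are given for members as a description, with no p, and counts of members called are set beside the share of all probe sets called, with nothing read from them.

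RNA came from 6 cultures of CD4+CD25- lymph node T cells of C57BL/6 mice, stimulated for 2 days by plate-bound antibodies (2 µg/ml anti-CD3, 1 µg/ml anti-CD28) in medium with 200 U/ml IL-2 and 5 ng/ml TGF-β1, conditions that steer CD4 cells towards a regulatory T cell fate. On day 1 the 3 control cultures received a bHLH-ER retrovirus and the 3 E47 cultures an E47-ER retrovirus, and carriers were sorted as CD4+Thy1.1+. After sorting both groups had 6 hours of anti-CD3, anti-CD28, IL-2 and 1 µM tamoxifen, which releases proteins fused to the estrogen receptor domain into the nucleus. Each of 3 experiments gave 1 control and 1 E47 culture from the same kind of pool: mice of 7, 8 and 9 weeks in experiments 1, 2 and 3, with 3, 3 and 4 mice pooled per sample. No culture went without tamoxifen, each group rests on 1 construct, and the sources used here name the control construct without describing its parts.

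Values were Affymetrix probe set intensities, described here as log2, so that a difference of 1 is a doubling. Median log2 intensity per array lay between 5.10 and 5.14. Of the T cell markers measured, 6 of 6 lay above the median of all probe sets. So did 3 of 3 induced Treg, 2 of 2 CD8 and 2 of 3 dendritic markers. Above that median were 1 of 5 myeloid, 1 of 3 B cell, 0 of 1 NK cell and 0 of 1 red cell markers. Summed levels of these marker lists overlapped between control and E47 except for the myeloid list and the NK marker, which were lower in E47. The myeloid list had 7.46 to 7.51 in control and 7.25 to 7.38 in E47. The NK marker Ncr1 had 3.80 to 3.89 and 3.70 to 3.77, a dim level (mean 3.79). No marker of either list differed at an adjusted p under 0.05 in the limma fit. Within the myeloid list Itgam was higher in E47, by 0.11. The part of these lists in the results was not tested. In such bulk samples fewer cells of a type and less RNA per cell cannot be told apart.

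Max is the shared partner of the network, a basic helix-loop-helix leucine zipper protein that lets the others bind DNA at the E-box CACGTG. Myc and N-Myc (Mycn) pair with Max and activate genes of growth, ribosome production and metabolism, and Myc is induced when T cells are stimulated. The Mxd proteins, Mxi1 and Mnt pair with Max at the same sites and recruit Sin3 and histone deacetylases to repress, and Mlx is a Max-like partner for some of them and for the glucose-responsive Mondo factors. E47, a basic helix-loop-helix protein without the zipper, binds E-boxes of the wider CANNTG class.

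Because both kinds of factor read E-boxes, the stretch before the transcription start was examined in the 250 bases upstream (RefSeq, GRCm38.p6). There 8 of the 9 members had an entry and gave 10 windows, 3 of them for Mxi1. Myc had no entry, so its upstream stretch was not searched. CANNTG, which matches itself on the other strand, was present in 6 of the 10 windows and in 66.2% of 32851 windows of the same length. The Max-type box CACGTG, a palindrome contained in CANNTG, was present in 3 of 10, those of Mxd4, Mnt and Mlx, and in 6.02% of all windows. CAGCTG, also a palindrome, and CAGGTG with its reverse complement CACCTG, E-box letters that E47 often binds, were in 0 of the 10 and in 13.0%, 9.36% and 8.83% of all windows. Of the 8 CANNTG boxes found, 4 are shown in capitals with 12 bases on each side, in the direction of the gene: the Max-type boxes and the box before Mycn, the activator with the largest difference between E47 and control. They lie at chr5:34187912-34187941 (- strand, Mxd4), chr11:74830789-74830818 (+, Mnt), chr11:101087238-101087267 (+, Mlx) and chr12:12942011-12942040 (-, Mycn). They begin 219, 123, 40 and 192 bases before the start of transcription. The other boxes were CATCTG of Mxd4 at 149 bases before the start, CAATTG of Mlx at 64, and CAGATG and CACATG in separate windows of Mxi1 at 81 and 123.
Mxd4: gggctgggccacCACGTGctgttgctaagc
Mnt: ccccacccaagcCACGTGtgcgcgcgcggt
Mlx: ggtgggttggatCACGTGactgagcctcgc
Mycn: aaaagagaaaagCAAATGgcttttggcgcg

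Mxd1, the member with the largest difference between E47 and control, had no CANNTG in its window. The 175 bases of that window that lie outside every annotated Mxd1 transcript, chr6:86669235-86669409 on the - strand, are shown in lower case throughout because no box was found to mark.
Mxd1: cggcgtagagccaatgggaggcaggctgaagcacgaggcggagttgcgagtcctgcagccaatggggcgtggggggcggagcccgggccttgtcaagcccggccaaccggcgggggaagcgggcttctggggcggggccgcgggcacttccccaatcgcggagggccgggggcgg

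The first comparison set E47 against control within each experiment, to ask which members differed between the constructs. Mxd1, whose protein takes Max away from Myc, stood apart from the other 8 members in size: 2 of its 3 probe sets were more than 2-fold higher in E47 in all 3 experiments. Mycn was higher in all 3 as well in its brightest probe set, by a smaller and less even amount. Its other probe sets were dim and had pairs of both signs. Mxd3 had mean differences of 0.30, 0.28 and 0.07 in its 3 probe sets, and Myc was higher by a small amount each time. Max, Mnt, Mlx, Mxi1 and Mxd4 had mean differences under 0.2 on the log2 scale in every probe set.

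**Figure D1:**
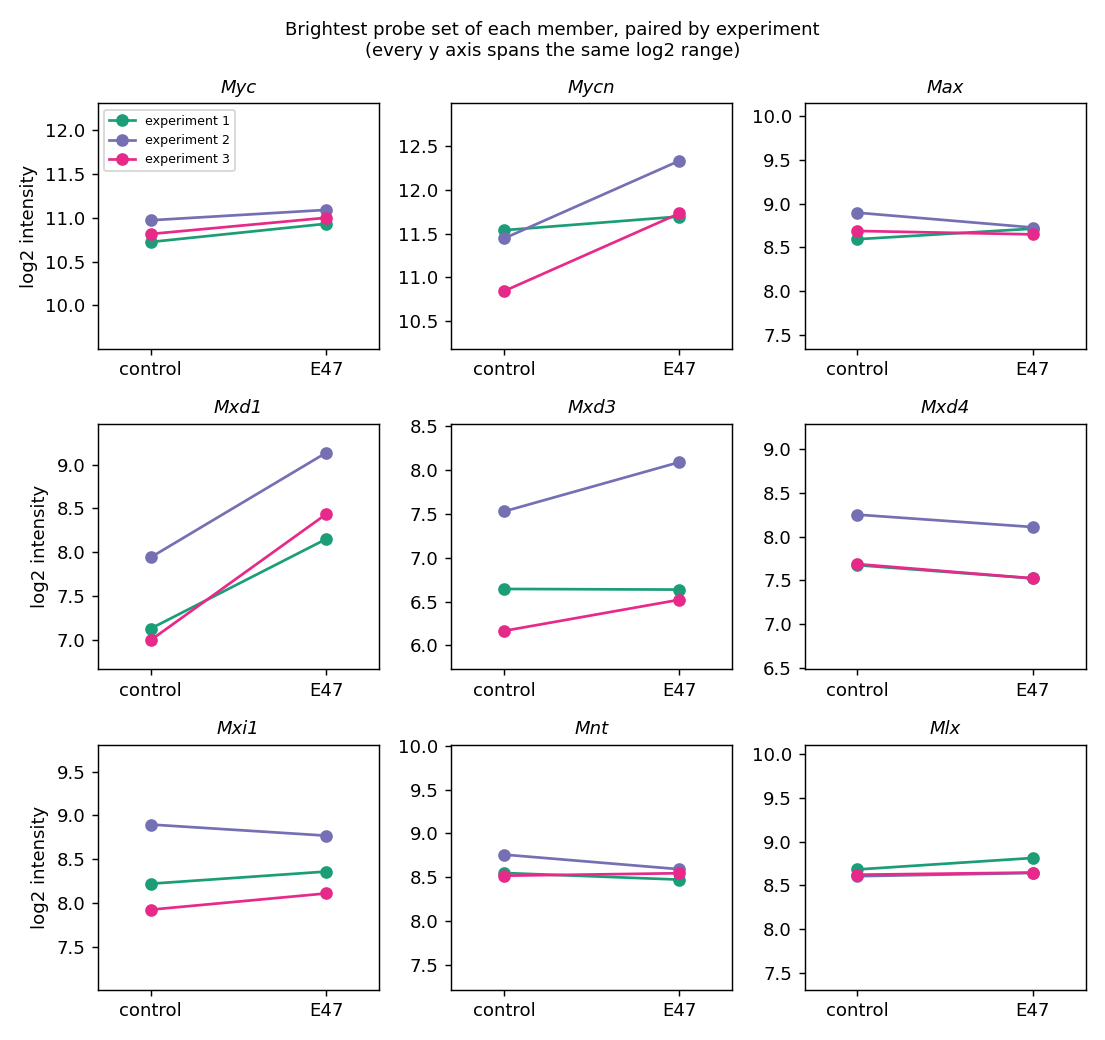
Log2 intensity of the brightest probe set of each of the 9 members in control and E47 cultures, with a line joining the 2 cultures of each experiment; every y axis spans 2.8 log2 units, so slopes are comparable between panels. The Mxd1 lines climb in all 3 experiments (by 1.02, 1.20 and 1.44), the Mycn lines climb by 0.16, 0.89 and 0.89, and the experiment 2 line lies highest in both groups for Myc, Max, Mxd1, Mxd3, Mxd4, Mxi1 and Mnt.

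Among the repressors, Mxd1 by its brightest probe set, 1455104_at, had log2 levels of 7.13, 7.94 and 6.99 in control experiments 1 to 3 and 8.15, 9.14 and 8.43 in E47 experiments 1 to 3. All E47 cultures lay above all control cultures, although E47 of experiment 1 was only a little above control of experiment 2. The mean difference was 1.22 over 3 pairs (SE 0.11), a ratio of 2.33. Every SE given here is the moderated one of the limma fit, which borrows variance from all features fitted. It does not measure the spread of the 3 pairs alone. Its second probe set, 1434830_at, read 6.77, 8.28 and 6.59 in control and 8.05, 9.60 and 8.22 in E47. Here the groups overlapped, because control of experiment 2 was higher than E47 of experiments 1 and 3, while the pair differences of 1.27, 1.32 and 1.63 were close to one another (mean 1.41, SE 0.10, a ratio of 2.65). The third, 1422002_at, was the dimmest and differed by 0.34, 0.09 and 0.12 (mean 0.19, SE 0.09), from 5.96 ± 0.24 in control to 6.15 ± 0.12 in E47 (SD, n = 3). The probe sets of Mxd1 therefore had 1 direction in all pairs and unequal sizes.

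In the limma fit with the experiment as a block, Benjamini-Hochberg adjusted over 45037 probe sets at a threshold of 0.05, 2 of the 21 member probe sets were called higher in E47, both of Mxd1, beside 0.238% of all probe sets called higher. None of the 21 was called lower, beside 0.0333% of all probe sets. At an unadjusted p under 0.05 the members counted 4 higher and 0 lower, beside 4.33% and 4.74% of all probe sets. This contrast helped to choose the family, so nothing is read from these counts. Neither Mxd1 probe set was called without the block, where 0 members passed and 0.115% of all probe sets were called higher and 0% lower. The same held with experiment 2 or experiment 3 left out. In those fits 34 and 4 of all probe sets were called higher, in that order, against 107 in the full fit. At an unadjusted p under 0.05 without the block there were 3 members higher and 0 lower, beside 2.62% and 3.32% of all probe sets. With experiment 1 left out 3 member probe sets were called higher, both of Mxd1 and the brightest of Mycn, while the share of all probe sets called higher rose to 1.08% (486 against 107).

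Mxd3, a repressor of the same family expressed in cycling cells, had 3 probe sets that differed from pair to pair. The brightest, 1448878_at, had levels of 6.64, 7.53 and 6.16 in control and 6.64, 8.09 and 6.52 in E47. Experiment 1 showed almost no difference (-0.01) and experiments 2 and 3 differed by 0.56 and 0.36, for a mean of 0.30 (SE 0.13). The second, 1438847_at, was higher in all 3 pairs (0.03, 0.36 and 0.45, mean 0.28, SE 0.11), and the third, 1422970_at, had a mean difference of 0.07 (SE 0.09). For Mxd3 the groups overlapped in every probe set.

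Mxd4, another Mxd repressor and one common in resting and differentiated cells, was the only member with a probe set lower in E47 in all 3 pairs. That probe set, 1434378_a_at, its brightest, had levels of 7.67, 8.25 and 7.68 in control and 7.52, 8.11 and 7.52 in E47. The pair differences of -0.15, -0.14 and -0.16 were nearly equal (mean -0.15, moderated SE 0.08, SD between pairs 0.01), yet the groups overlapped because experiment 2 was high in both. The other 3 Mxd4 probe sets had mean differences of -0.11, 0.12 and -0.07, each with pairs of both signs.

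Mxi1, the remaining relative of the Mxd proteins, had levels of 8.22, 8.89 and 7.92 in control and 8.36, 8.77 and 8.11 in E47 for its brighter probe set, a mean difference of 0.07 (SE 0.10) with pairs of both signs. Its dimmer probe set differed by 0.02 (SE 0.09). Mnt, the repressor partner of Max that is present in most cells, had levels of 8.55, 8.76 and 8.52 in control and 8.47, 8.59 and 8.54 in E47 for its brighter probe set, a mean difference of -0.07 (SE 0.09), and 0.07 (SE 0.09) for the dimmer. The cultures of both groups were interleaved for both genes.

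**Figure D2:**
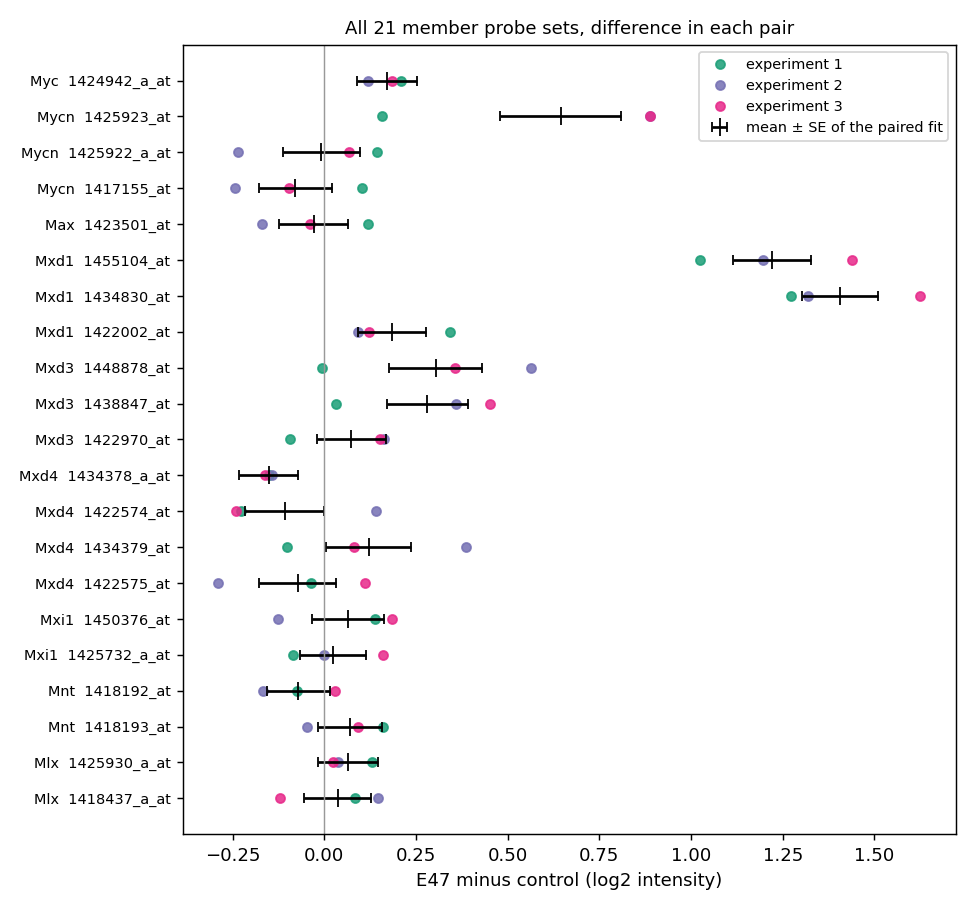
E47 minus control in log2 intensity for all 21 member probe sets, with 1 dot per experiment and the mean ± SE of the paired fit as a bar. The probe sets 1455104_at and 1434830_at of Mxd1 lie at 1.02 or more in every experiment, and the brightest of Mycn spreads from 0.16 to 0.89, where the dots of experiments 2 and 3 coincide.

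Among the activators, Mycn had its signal in 1 probe set. In that probe set, 1425923_at, control levels were 11.54, 11.44 and 10.84 and E47 levels 11.70, 12.33 and 11.73. Every E47 culture lay above every control culture, and the groups did not overlap, as was also true of 1 Mxd1 probe set (2 of 21 member probe sets higher without overlap, beside 4.57% of all probe sets, and 0 lower, beside 6.65%). The pair differences were 0.16 in experiment 1 and 0.89 in both others, for a mean of 0.64 (SE 0.16), a ratio of 1.56. The other Mycn probe sets had mean levels below the median of all probe sets (4.69 and 3.15 in control) and mean differences of -0.01 and -0.08, and whether they were above background was not tested.

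Myc itself was measured by 1 probe set, with levels of 10.72, 10.97 and 10.82 in control and 10.93, 11.09 and 11.00 in E47. E47 was higher in each experiment, by 0.21, 0.12 and 0.19, while E47 of experiment 1 was below control of experiment 2. The mean difference was 0.17 (SE 0.08), a ratio of 1.13, with an SD of 0.05 between pairs. Max, the common partner, also had 1 probe set, at 8.59, 8.90 and 8.69 in control and 8.71, 8.73 and 8.65 in E47, and its mean difference of -0.03 (SE 0.09) came from pairs of both signs. Mlx had mean differences of 0.06 and 0.04 (SE 0.08 and 0.09); its brighter probe set was higher in E47 in all 3 pairs, by 0.13, 0.04 and 0.02.

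Over the 21 member probe sets the median difference was 0.07, against -0.02 over all probe sets tested. Members higher in all 3 pairs numbered 7 probe sets (13.5% of all probe sets were), belonging to Myc, Mycn, Mxd1, Mxd3 and Mlx, and 1 was lower in all 3 (17.5% of all).

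The second comparison asked how far members varied between the 3 experiments, a difference the choice of the family did not use directly. Its F test shares the residual variance of the paired fit with the first comparison. A family chosen on that comparison may therefore be tilted towards large F values, and the test is not independent of the choice. Genes of the Mxd branch had the largest excess in experiment 2. Mxd1, Mxd3, Mxd4 and Mxi1 were all highest there, by 0.58 to 1.32 on the log2 scale over the mean of the other experiments in their brightest probe sets. By the span of experiment means Mycn (11.62, 11.89 and 11.29) varied more than Mxd4 (7.60, 8.18 and 7.60). Myc, Max and Mnt were also highest there, but by 0.15 to 0.16, Mycn was 0.44 higher on average but not highest in control, and Mlx was lower by 0.07. The same order held in control and E47 cultures for 14 of 21 member probe sets, in which experiment 2 was the highest of the 3 in both groups, beside 15.7% of all probe sets; 11 of these 14 belonged to Mxd1, Mxd3, Mxd4 or Mxi1, which have 12 probe sets between them. Experiment 2 was singled out after its values were seen, and its mice were of 8 weeks, so age, day of culture and pool cannot be told apart.

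**Figure D3:**
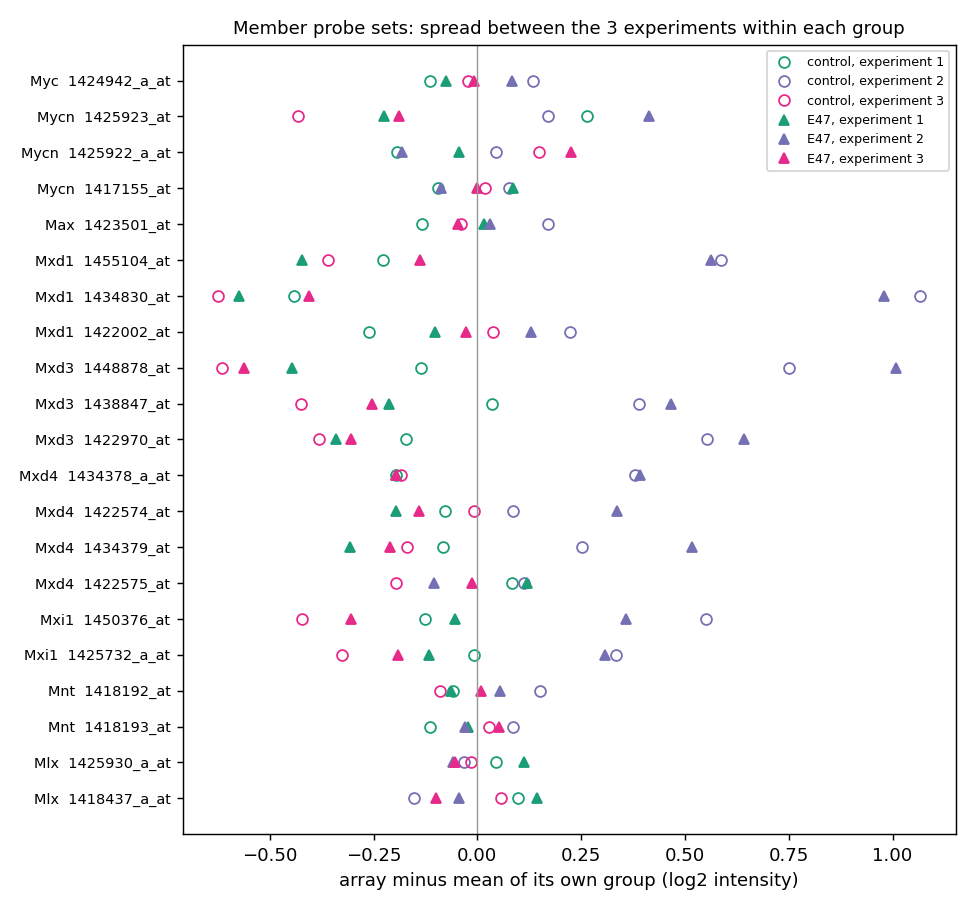
Each array minus the mean of its own group, in log2 intensity, for the 21 member probe sets; open circles are control and filled triangles E47, coloured by experiment. Experiment 2 lies to the right in both groups for all Mxd1, Mxd3 and Mxi1 probe sets and for 3 of 4 Mxd4 probe sets, while the Mlx and dim Mycn probe sets show no such order.

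A moderated F test of the experiment in the same limma fit called 2 of 21 member probe sets, beside 0.604% of all probe sets and 1.14% of those above the median level. These were 1434830_at of Mxd1 (adjusted p = 0.0175), with means of 7.41, 8.94 and 7.40 over both cultures of experiments 1, 2 and 3, and 1448878_at of Mxd3 (adjusted p = 0.0434), with 6.64, 7.81 and 6.34. The other Mxd1 probe sets had adjusted p = 0.0828 and 0.406, and the other Mxd3 ones 0.0553 and 0.145. With 1 probe set per gene and adjustment over 18193 genes, 4 of the 9 members were called, Mxd3 (adjusted p = 0.0118), Mxd1 (0.0269), Mxi1 (0.0352) and Mxd4 (0.0360), beside 3.2% of all genes. Mycn (0.282), Myc (0.473), Mnt (0.581), Max (0.636) and Mlx (0.685) did not pass. Both probe set calls were lost when experiment 2 was left out (adjusted p = 0.999 for Mxd1 and 0.922 for Mxd3). They were also lost without experiment 3 (0.0825 and 0.169). In these fits only 1 and 0 of all probe sets were called, in that order, against 272. With experiment 1 left out 7 were called, beside 2.49% of all probe sets (1120 against 272). A test without the group term called 0 members (adjusted p = 0.579 for Mxd1 and 0.113 for Mxd3), beside 90 of all probe sets.

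The size of the experiment 2 excess was close between the groups for Mxd1 by its brightest probe set (0.88 in control and 0.84 in E47 cultures) and for Mxd4 (0.57 and 0.59). It was further apart for Mxi1 (0.82 and 0.54) and Mxd3 (1.12 and 1.51). With 1 culture of each group per experiment a difference between these excesses could not be tested. Some cell type markers were also higher in experiment 2. Foxp3, the lineage factor of Treg cells, was 1.71 higher there (adjusted p = 0.00262), whereas the other induced Treg markers did not pass the test, with Il2ra, the IL-2 receptor alpha chain, differing by 0.12 and the checkpoint receptor Ctla4 by -0.36. The summed induced Treg markers of experiment 2 were at 12.39 in control and 12.11 in E47, against 12.34 to 12.38 in the other 4 cultures. The CD8 marker Cd8a was 0.87 higher (adjusted p = 0.0289), while the other, Cd8b1, was 0.39 higher and did not pass the F test (0.293). Ms4a1, the B cell antigen CD20, was 0.68 higher (0.0491) at a mean level of 4.98, below the median of all probe sets. The B cell markers Cd79a and Cd79b were 0.21 and 0.47 higher and did not pass the F test (adjusted p = 0.573 and 0.219). The summed CD8 markers were at 7.71 in control and 8.35 in E47 of experiment 2 against 7.13 to 7.58 in the other 4 cultures, and the summed B cell markers at 6.90 and 6.73 against 6.21 to 6.43. The myeloid sums of experiment 2, 7.46 and 7.25, and the T cell sums, 14.15 and 14.32, did not stand apart to the high side. All 6 cultures had been sorted as CD4+Thy1.1+, a gate meant to leave out CD8 T cells and B cells. How pure the sorted cells were was not examined. The part of these cell types in the Mxd values was not tested.

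Genes on which the network acts, or that act with it, were then examined in 4 lists that hold no member. Between E47 and control none of the 4 lists had a gene past the threshold, with or without the block, in limma at the gene level, where 0.781% of 18193 genes were called higher and 0.363% lower with the block. At an unadjusted p under 0.05 each list had 1 gene with the block, each lower in E47, and 0 without it. Over all genes 5.1% were higher and 6.9% lower at that level with the block, and 6.65% passed it in either direction without the block.

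Among 20 targets of Myc in ribosome production, 5 were higher and 15 lower in E47, with a median difference of -0.06 against -0.03 over all genes. Utp20, a factor of ribosomal RNA processing, had the lowest p and was lower by 0.21, 0.26 and 0.27 in the 3 pairs (mean -0.24, SE 0.08, adjusted p = 0.297). Rrp9, a small nucleolar ribonucleoprotein component, differed by -0.19 (SE 0.11, adjusted p = 0.540). Ncl and Npm1, abundant nucleolar proteins and classical Myc targets, had differences of -0.02 and 0.04 (SE 0.08 for both). The medians of the list in the 3 pairs were 0.02, -0.07 and -0.12.

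Of 22 measured targets in metabolism and cycle entry, 7 were higher and 15 lower, with a median of -0.08. Cad, the enzyme that starts pyrimidine synthesis, was lower in each pair (-0.11, -0.29 and -0.36, mean -0.25, SE 0.09, adjusted p = 0.340). Slc7a5, a carrier of large neutral amino acids, was higher in each pair (0.25, 0.07 and 0.26, mean 0.19, SE 0.08, adjusted p = 0.430). Odc1, the first enzyme of polyamine synthesis, differed by 0.06 (SE 0.08) and Ldha, lactate dehydrogenase A, by -0.12 (SE 0.08).

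Of 9 genes that Myc is known to repress, 4 were higher and 5 lower, with a median of -0.08 whose sign was not stable. It was 0.10 without experiment 1, 0.04 among probe sets above the median level and 0.01 with the mean over the probe sets of a gene. Gadd45b, a stress-response gene, was lower in each pair (mean -0.19, SE 0.08, adjusted p = 0.412), and Cdkn2b, the inhibitor p15 of cyclin D kinases, differed by -0.24 (SE 0.11, adjusted p = 0.479). Cdkn1a, which encodes the inhibitor p21, differed by 0.10 (SE 0.09).

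Of 23 measured relatives, partners and turnover genes, 9 were higher and 14 lower, with a median of -0.04 that turned to 0.02 without experiment 1 and to 0.01 with the mean over probe sets. Bin1, an adaptor that binds Myc, was lower by 0.23, 0.24 and 0.19 (mean -0.22, SE 0.08, adjusted p = 0.343), and Mlxipl, the glucose-responsive partner of Mlx, had a mean difference of -0.19 at a dim level of 3.99 ± 0.08 in control (SD, n = 3, adjusted p = 0.494). Sin3a and Sin3b, the scaffolds through which Mxd proteins repress, differed by -0.04 and 0.02, and the deacetylases Hdac1 and Hdac2 by -0.04 and 0.08. Fbxw7, which marks Myc for breakdown, differed by 0.11 (SE 0.09).

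**Figure D4:**
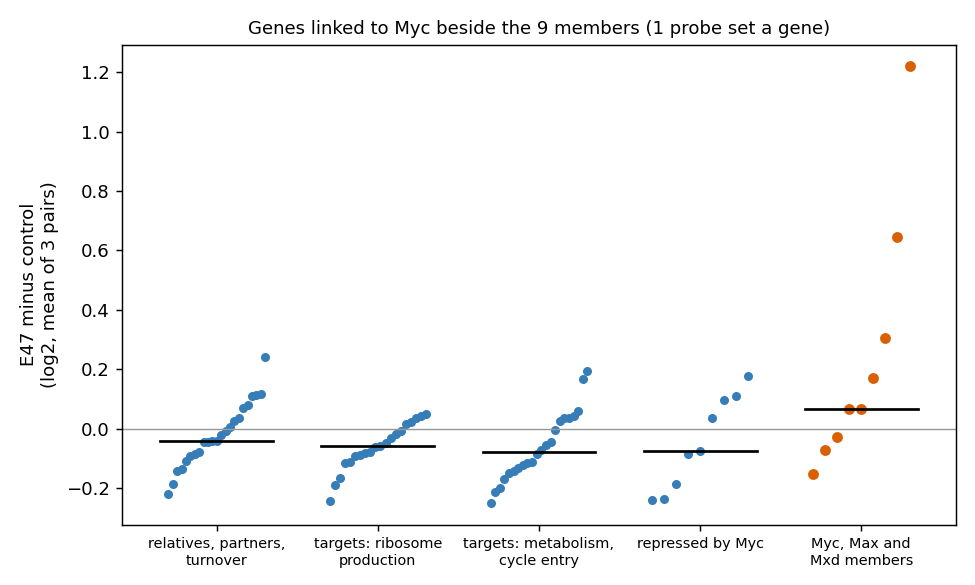
Mean difference between E47 and control in log2 intensity, 1 dot per gene by its brightest probe set, for the 4 lists of genes linked to Myc and for the 9 members; the black line is each list's median. The list genes lie between -0.25 and 0.24, and Mxd1 lies at 1.22.

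Between experiments, 3 of the 9 genes that Myc represses passed the F test (3.2% of all genes did) and 0 genes of the other 3 lists. Ndrg1, a gene of stress and differentiation, was higher in experiment 2 by 0.88 (adjusted p = 0.0291), whereas Cdkn1a was lower there by 0.75 (adjusted p = 0.0291) and Gadd45b lower by 0.41 (adjusted p = 0.0439). Values of experiment 2 minus the other experiments had a median of -0.20 over the ribosome production list and -0.17 over the metabolism list, against -0.01 over all genes. The median was 0.18 over the genes that Myc represses and -0.02 over the relatives, partners and turnover genes.

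Likeness to Mxd1 and Myc was measured by Pearson correlation over the 6 arrays with the brightest probe set, among 800 and 801 genes with a mean of at least 6 and a range of at least 1 on the log2 scale. These arrays share the constructs and the experiments, so correlations near 1 are common: 119 of 1055 candidate probe sets exceeded 0.9 with Mxd1 and 38 of 1057 with Myc. Nearest to Mxd1 were Ypel2 (r = 0.999), the palmitoyltransferase gene Zdhhc14 (0.991), Bbip1 of the BBSome (0.988), the NF-κB cofactor Bcl3 (0.986) and the translation inhibitor Pdcd4 (0.985). Ypel2 read 7.73, 8.34 and 7.67 in control and 8.42, 9.19 and 8.67 in E47, the same order of cultures as Mxd1. Nearest to Myc were Eomes, a T-box factor of cytotoxic and memory T cells (0.997), Tmem108 (0.979), Ldlrad3 (0.973), the Ras GTPase-activating gene Rasa3 (0.968) and Rell1 (0.964). Eomes read 5.30, 6.59 and 5.80 in control and 6.39, 7.43 and 6.80 in E47, a wider span than that of Myc.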

How the data were processed

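RNA of 6 cultures, 3 control and 3 E47, was hybridised to Affymetrix mouse arrays. Probe set intensities were deposited by the authors on a linear scale, made with RMA per the submitters' processing notes (no version); RMA equalises array distributions, so a shift shared by most genes would not show. Here log2 was taken with no filter or pseudocount. The 64 Affymetrix control probe sets were left out of tests, leaving 45037. Symbols came from the platform annotation: 34945 probe sets had 1, 932 several and 9160 none. Groups and replicate numbers came from titles.

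Differences were fitted with limma 3.58.1 in R 4.3.3 (lmFit, eBayes, two-sided), with group and experiment as terms, Benjamini-Hochberg adjustment over all probe sets and a threshold of 0.05. The experiment was tested by a moderated F test. Genes of lists were represented by the probe set with the highest mean, over 18193 genes. The pairing rests on the design text, which gives 3 independent experiments with 1 control and 1 E47 sample each, and on shared mouse age and pool size. Deviations from group means of same-numbered arrays correlated at 0.09, 0.52 and 0.31, and those of differently numbered arrays at -0.43 to 0.22. E47 of experiment 1 correlated more with control of experiment 3 (0.22) than with its own control, so these values do not mark out that pair. The scripts were tested on simulated data. Precision is limited by the 3 arrays in each group; there is no read depth.

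Named were every member with every probe set, from each list up to 4 genes past the threshold and up to 2 not past it by lowest p, and 5 genes most like Mxd1 and Myc, passing over clone names. Ncl, Npm1, Odc1, Ldha, Cdkn1a, Sin3a, Sin3b, Hdac1, Hdac2, Fbxw7, Ndrg1 and the markers named beside experiment 2 were chosen after their values were seen. Members and lists were chosen with earlier results of these data known. Alternatives were no block, a random block, median centring, quantile normalization, a filter on dim probe sets, each experiment left out, other gene summaries and, for the F test, no group term.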

Additional observations from a re-analysis of the deposited data

How the results depend on the processing

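The difference of Mxd1 probe set 1455104_at lay between 1.11 (without experiment 3) and 1.32 (without experiment 1) over the alternatives. Its sign could not change with an experiment left out, because all 3 pairs were higher in E47. The fits with no block or a random block return the same mean by design. Nothing is therefore read from this range. Calls were not stable. Member probe sets called higher in E47 numbered 2 with the experiment as a block, 0 with no replicate block, 0 with a random replicate block, 1 gene with 1 probe set a gene, and 0 to 3 with an experiment left out. Over all probe sets, 107 were called higher and 15 lower. There were 52 and 0 with no replicate block in limma, where 1494 were lower at an unadjusted p under 0.05. With a random replicate block 89 were called higher and 6 lower, although 0 members were. There were 41 lower among probe sets above the median and 66 lower over genes. With an experiment left out there were 4 to 486 higher and 0 to 65 lower. For the F test of the experiment, 2 members and 272 probe sets were called. The counts were 0 and 90 with no group term, 5 and 609 above the median level, 4 and 582 over genes, and 0 to 7 and 0 to 1120 with an experiment left out. Among repressed genes 3 were called, 0 with no group term and 0 to 4 with an experiment left out. In the ribosome and metabolism lists, where 0 were called, there were 2 and 1 above the median level, 2 in the ribosome list with the mean over probe sets, and 0 to 1 in each with an experiment left out. No alternative brought a gene of the 4 lists past the threshold between E47 and control. With 3 arrays per group, dim probe sets and small differences could not be resolved, and signal over background was not tested.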
